A study of Homo sapiens with 2 samples.

Results

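The DNA replication licensing and S-phase genes MCM2, MCM3, MCM4, MCM5, MCM6, MCM7, PCNA, E2F1, CDC6 and RRM2 were examined in RNA of the human liver cancer line Huh-7, with and without the amiloride derivative BS008. The control cells received 0.1% DMSO for 24 h and the treated cells 0.1 mM BS008 for 24 h. Both came from passages 15 to 20, and each condition has 1 library. The deposited tables list 239322 exons of hg19 by position, without gene names. An exon was assigned to a gene where it lay, on the strand of that gene, inside a window given in kb for the gene. The windows held 135 listed exons for the 10 genes, between 6 for PCNA and 18 for MCM7, of which 3 are microRNA precursors. All 135 had reads in both libraries, and 127 reached 100 reads in the higher one. As a check of the names, 118 of the 135 exon lengths were also the length of an exon of the same gene in GENCODE release 29, which is on GRCh38. A pair of the microRNA precursors is among the 118, so a matching length alone does not show that an entry is an exon of the gene. Of the 17 others, 14 were the first or last exon listed for a gene. The rest were internal entries of PCNA, of 424 and 821 bases, and the microRNA precursor that is not among the 118. Only 2 of the 6 exons listed for PCNA had a matching length, so this check says little for PCNA. Hepatocyte markers were not placed, as the tables name no genes and no annotation on hg19 was used, so the cell type label was not checked. Positions of exons are on hg19.

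Before a cell copies its DNA, each origin of replication is licensed. CDC6 helps the origin recognition complex to load a ring of MCM2, MCM3, MCM4, MCM5, MCM6 and MCM7 around the double helix, and this ring later becomes the motor of the replicative helicase. PCNA is the sliding clamp that holds the DNA polymerases on the template, and RRM2 is the small subunit of ribonucleotide reductase, which makes deoxyribonucleotides. E2F1 is a transcription factor whose targets include most of these genes, and the group is widely used as a marker of proliferating cells, liver cancer cells included.

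The reads summed over the exons of all 10 genes were fewer after BS008 than in control cells, and 7 genes were lower by at least 1.5-fold. The clamp PCNA and the helicase subunit MCM3 were furthest below control, at 29% and 33.4% of it. MCM4 and MCM6 were also more than 2-fold lower, MCM5, RRM2 and MCM2 lay between 1.5-fold and 2-fold lower, and MCM7, CDC6 and E2F1 did not reach 1.5-fold. No gene was higher by 1.5-fold. These values are ratios of CPM, the reads scaled to the total counts of their library (55476654 in control, 53578432 in BS008), with 0.5 CPM added before the log2 ratio was taken. No test was made, because 1 library for each condition gives no spread between cultures. The 95% intervals given with the ratios are exact binomial intervals on the counts without the added 0.5 CPM, and they cover counting error only. In such bulk RNA, fewer cells that express a gene and less of its RNA per cell cannot be told apart.

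For the whole table, exons were joined into blocks on 1 strand with gaps of up to 10 kb, since the files name no genes. A block can therefore hold several genes. Of 13602 blocks with at least 2 exons and 100 reads in the higher library, 18.4% were lower by at least 1.5-fold after BS008 and 17.2% were higher, against 7 and 0 of the 10 replication genes. At 2-fold, 6.9% of blocks and 4 of the genes were lower, and 52.5% of blocks and all 10 genes had a log2 ratio below 0. The median log2 ratio was -0.90 over the 10 genes and -0.04 over the blocks. A log2 ratio at or below that of PCNA was found in 1.04% of blocks, and the same figure was 1.60% for MCM3, 3.71% for MCM4, 3.96% for MCM6, 8.27% for MCM5, 9.24% for RRM2 and 12.1% for MCM2. MCM7, CDC6 and E2F1 sat well inside the distribution, with 22%, 35.2% and 46.0% of blocks as low or lower.

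Single exons gave the same picture, though they hold the same reads as the gene sums and are no further evidence. Of the 131 replication gene exons with at least 10 reads in either library, 100 (76.3%) were lower by at least 1.5-fold, while 13.9% of all 131330 exons with this many reads were. A log2 ratio below 0 was found for 128 of the 131 and for 53.2% of all exons. Higher by 1.5-fold were 1 of the 131 and 11.5% of all exons. The other 4 had fewer than 10 reads in both libraries and comprised the first exon of PCNA, the ninth of MCM2 (7 and 6 reads) and a pair of the microRNA precursors. At a limit of 2-fold, 52 of the 131 and 3.79% of all exons were lower. The median log2 ratio was -0.88 over the replication gene exons and -0.04 over all exons. The 2 sets differ in depth, as 127 of the 131 but only 68432 of the 131330 exons reached 100 reads in the higher library. The 0.5 CPM added draws ratios of exons with few reads toward 0, which makes the shares over all exons smaller. The lower quartile was -0.37 over the 131330 exons and -0.48 over the 68432. At 100 reads the medians were -0.89 for the replication gene exons and -0.10 for all.

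PCNA lies on the minus strand of chromosome 20, and its listed exons span 5095600 to 5107268. It had 18311 reads in the control library and 5109 after BS008, or 330 and 95.4 CPM. The log2 ratio was -1.79 (95% interval -1.84 to -1.75), a level 3.45-fold lower. The first exon listed, far upstream of the rest, had only 8 reads in the control library and 6 after BS008, and the other 5 exons all were at least 2-fold lower. They ran from the third, with 4334 and 1106 reads (log2 ratio -1.89), to the sixth, with 2403 and 767 (-1.56). GENCODE lists 3 pseudogenes named after PCNA and 3 after RRM2, and how the authors treated reads that match several places is not given in the sources used here.

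The 6 subunits of the MCM ring together had 100382 reads in the control library and 50084 after BS008, or 1809 and 935 CPM, a log2 ratio of -0.95 (-0.97 to -0.94). Their ratios covered a wide range, from MCM3 to MCM7. MCM3, through which the ring is recruited to the loading machinery (chromosome 6, minus strand, 52128812 to 52149582), had 21969 reads in the control library and 7065 after BS008, a log2 ratio of -1.58 (-1.63 to -1.55). All 17 of its exons were at least 2-fold lower, so the difference ran along the whole transcript. The third listed was furthest below control, with 1124 and 331 reads (log2 ratio -1.64), and the sixteenth the least, with 804 and 315 (-1.23).

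MCM4, MCM6 and MCM7 form the catalytic core of the helicase. MCM4 (chromosome 8, plus strand, 48873494 to 48890068) had 18327 reads in the control library and 7572 after BS008, a log2 ratio of -1.22 (-1.26 to -1.19). MCM6 (chromosome 2, minus strand, 136597204 to 136634011) had the fewest reads of the ring, 6329 and 2650, with a log2 ratio of -1.20 (-1.27 to -1.14). The intervals of MCM4 and MCM6 overlapped, so their order was within counting error. The exons of MCM4 ran from the fifteenth, with 2068 and 751 reads (log2 ratio -1.38), to the eighth, with 1200 and 619 (-0.88).

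MCM5 and MCM2 flank the gate through which the ring opens onto DNA. MCM5 (chromosome 22, plus strand, 35796116 to 35820494) had 10249 and 5196 reads, a log2 ratio of -0.93 (-0.98 to -0.88). Its 15 exons stayed close together, from the seventh, with 313 and 131 reads (log2 ratio -1.06), to the tenth, with 587 and 333 (-0.72). MCM2 (chromosome 3, plus strand, 127317253 to 127341274) had 17064 reads in the control library and 9678 after BS008, a log2 ratio of -0.77 (-0.80 to -0.73). Its exons ran from the first, with 155 and 55 reads (log2 ratio -1.11), to the fifth, with 827 and 547 (-0.52). The 0.5 CPM added drew the ratio of that first exon, at 2.79 and 1.03 CPM, toward 0. It also did so, to a lesser degree, for the seventh exon of MCM5, at 5.64 and 2.45 CPM.

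MCM7 (chromosome 7, minus strand, 99690404 to 99699427) had the most reads of all 10 genes, 26444 in control cells and 17923 after BS008, and the smallest difference in the ring, with a log2 ratio of -0.51 (-0.54 to -0.48). Apart from MCM4 with MCM6 and MCM5 with RRM2, no neighbours in the order of the 10 genes had overlapping intervals.

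RRM2 (chromosome 2, plus strand, 10262735 to 10271546) had 25601 reads in the control library and 13419 after BS008, a log2 ratio of -0.88 (-0.91 to -0.85). The loading factor CDC6 (chromosome 17, plus strand, 38444146 to 38459413) had 7974 and 6409 reads, a log2 ratio of -0.26 (-0.31 to -0.22). All 12 of its exons were below control, but none by 1.5-fold, and the fifth was the furthest, with 1600 and 1163 reads (log2 ratio -0.40). The transcription factor E2F1 (chromosome 20, minus strand, 32263293 to 32274210) had 6282 and 5673 reads, a log2 ratio of -0.10 (-0.15 to -0.04), which left it at 93.5% of control.

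Levels of different genes were compared per length, as RPKM, the summed reads of a gene scaled to the kb of its listed exons and to the total counts. In control cells PCNA was highest at 157 RPKM, followed by RRM2 at 136, MCM7 at 129, MCM3 at 127, MCM4 at 93.5, MCM2 at 84.1, CDC6 at 47.1, E2F1 at 42.0, MCM5 at 33.9 and MCM6 at 30.5. After BS008 the order was another one. MCM7 came first at 90.7 RPKM and RRM2 second at 73.8, followed by MCM2 at 49.4, PCNA at 45.5, MCM3 at 42.4, MCM4 at 40.0, E2F1 and CDC6 both at 39.2, MCM5 at 17.8 and MCM6 at 13.2. PCNA thus held the first place in control cells and the fourth after BS008, while MCM5 and MCM6 were at the end of both lists. The place of a gene depended on how its exons were summed. As the median RPKM of exons with at least 100 reads in the higher library, RRM2 led in control cells at 223, PCNA was at 144 and MCM5 at 73.5, above E2F1 and CDC6. The last listed exon of MCM5 alone has 3184 bases. The summed length of PCNA rests on 6 listed exons, of which only 2 matched the length of a GENCODE exon of PCNA. The exons of a gene also spread widely, from 95.2 to 544 RPKM in PCNA and from 41.9 to 309 in MCM3 in control cells, so neighbouring places are not set apart by these levels.

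Within the ring, whose subunits are assembled in equal numbers as protein, the median exon RPKM of the highest subunit (MCM7) was 5.21 times that of the lowest (MCM6) in control cells and 7.84 times after BS008. MCM7 held 29.1% of the summed medians of the 6 subunits in control cells and 43.1% after BS008. MCM3 held 19.6% and 10.7%, respectively. The size depended on the measure, since by RPKM of the summed reads MCM7 held 25.9% and 35.8%, MCM3 held 25.5% and 16.7%, and the highest subunit was at 4.24 times the lowest in control and at 6.87 times in BS008.

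The exons of a gene were then compared with each other, in the direction of transcription. The SD of their log2 ratios, over exons with at least 100 reads, was between 0.10 and 0.16 for MCM5, CDC6, MCM3, RRM2, MCM4, MCM2 and PCNA. It was 0.22 in MCM7, 0.30 in MCM6 and 0.35 in E2F1. The exons of these last 3 genes thus differed most among themselves. Counting error adds to the SD where reads are few, and E2F1 and MCM6 had the fewest control reads, 6282 and 6329. CDC6, with 7974, had an SD of 0.12, and MCM7 had the most reads. The 0.5 CPM added also acts unequally within a gene. It draws exons with few reads, such as the thirteenth of MCM6 at 2.87 and 1.85 CPM, further toward 0 than the others. How much of each SD came from this was not tested. Blocks can join several genes, so no SD over the whole table was set beside these values.

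In MCM7 the ratio varied along the gene. The exon from 99697637 to 99697716, the third listed, had 652 reads in the control library and 662 after BS008 (log2 ratio 0.07), while the thirteenth, from 99691796 to 99691964, had 1455 and 874 (log2 ratio -0.67). Summed over the first 6 exons the log2 ratio was -0.27 (-0.33 to -0.22), and over the others it was -0.60 (-0.63 to -0.56), past the 1.5-fold limit. The last exon, from 99690404 to 99690756, stood apart in the second stretch, with 2482 and 1903 reads and a log2 ratio of -0.33, nearer to control than the fifth (-0.37) and the sixth (-0.38). This split was chosen after the values had been seen. The Spearman correlation of the log2 ratio with position was -0.70 over 14 exons. Between the first exon and the third lies one from 99697836 to 99698380, which had 7 reads in the control library and 58 after BS008, the 1 exon of the set that was higher by 1.5-fold (log2 ratio 1.34). It held 0.0265% of the reads of MCM7 in control cells (95% Wilson interval 0.0128 to 0.0546%) and 0.324% (0.250 to 0.418%) after BS008. At 0.126 CPM in control and 1.08 CPM in BS008, its log2 ratio was drawn toward 0 by the 0.5 CPM added. The first exon, with 546 and 451 reads, overlaps exons listed on the other strand that had 46 and 33. Whether the library kit marks strand is not given in the sources used here.

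The MCM7 window also holds 3 entries that are not exons of its mRNA. Their lengths of 82, 80 and 84 bases and the spacing between them are those of the microRNA precursors MIR106B, MIR93 and MIR25 in RefSeq, which lie in an intron of MCM7. The mature forms best known from this cluster are shown to place these entries, with the seed, bases 2 to 8, in capitals. The sequences are from RefSeq (GRCh38.p14).
hsa-miR-106b-5p: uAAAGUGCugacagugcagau
hsa-miR-93-5p: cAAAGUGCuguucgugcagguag
hsa-miR-25-3p: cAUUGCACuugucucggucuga

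The first 2 share the seed AAAGUGC, and the third has AUUGCAC. Few reads were counted on the precursors, 6 in control cells and 3 after BS008 for MIR106B, 3 and 2 for MIR93, and 48 and 21 for MIR25, and libraries made with an mRNA kit do not measure the mature forms.

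MCM6 varied along its length without a single trend. The exon from 136620177 to 136620318, the eighth listed, had 500 reads in the control library and 153 after BS008, a log2 ratio of -1.50. The eleventh to the fourteenth were nearer to control. The thirteenth, from 136608972 to 136609133, had 159 and 99 reads, a log2 ratio of -0.52. Summed over these 4 exons, the reads numbered 696 and 419 and the log2 ratio was -0.65 (-0.86 to -0.50), against -1.29 (-1.38 to -1.22) over the 10 exons before them and -1.17 (-1.37 to -1.06) over the 3 after them. The stretches were again chosen after the values had been seen.

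In E2F1, the exons at the 5′ end were the furthest below control. The second, from 32268132 to 32268222, had 326 reads in the control library and 171 after BS008, a log2 ratio of -0.79. With 0.5 CPM added, it was the 1 exon of E2F1 that was lower by 1.5-fold. The first had 68 and 40 reads, or 1.23 and 0.747 CPM, and its log2 ratio of -0.47 was drawn toward 0 by the 0.5 CPM added. The fourth, from 32266007 to 32266159, had 366 and 411, a log2 ratio of 0.20. Summed over the first 3 exons the log2 ratio was -0.53 (-0.69 to -0.40), and over the remaining 4 it was -0.02 (-0.08 to 0.03), an interval that holds 0. The near-control total of E2F1 therefore came from its 3′ exons, which held most of its reads.

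RRM2, CDC6 and PCNA were also further below control toward the 5′ end, by smaller steps. In RRM2 the first exon, at 10262735 to 10263024, had 2051 reads in control and 898 in BS008, with a log2 ratio of -1.12. The last, at 10269361 to 10271546, had 9799 and 5564, with -0.76, and the seventh was the closest to control, with 1368 and 783 (-0.74). The Spearman correlation with position was 0.92 over 10 exons of RRM2, 0.77 over 11 of CDC6 and 0.90 over 5 of PCNA. It was 0.49 over 6 exons of E2F1, 0.28 over 17 of MCM6, 0.19 over 15 of MCM5, 0.09 over 17 of MCM3 and over 16 of MCM2, and -0.27 over 16 of MCM4, so a trend along the gene was not common to the set. Exons of 1 gene share its transcripts and library, so these correlations are descriptions.

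The exons were also compared as shares of the reads of their own gene. The median absolute difference in share was 0.42 percentage points over the 127 exons with at least 100 reads, and 29 differed by at least 1 point. The 95% Wilson intervals, which cover counting error only, were apart for 31 of the 127, with a higher share after BS008 in 16. For 30258 exons with at least 100 reads in blocks of 6 to 18 exons, taken as shares of their block, the median was 0.94 points, 48.1% differed by at least 1 point and 23.6% had intervals apart. Such blocks can join genes, so these values are no measure of single genes, and nothing is read from the counts. The last exon of CDC6 (38458164 to 38459413) had the largest difference, with a share of 20.5% (19.6 to 21.4%) in control and 23.9% (22.9 to 25%) in BS008. The last exon of RRM2 held 38.3% (37.7 to 38.9%) and 41.5% (40.6 to 42.3%). In the other direction, the second exon of E2F1 held 5.19% (4.67 to 5.77%) and 3.01% (2.60 to 3.49%), and the eighth of MCM6 7.90% (7.26 to 8.59%) and 5.77% (4.95 to 6.73%). The eleventh exon of MCM7, with 5248 and 3185 reads, held 19.8% (19.4 to 20.3%) and 17.8% (17.2 to 18.3%). The largest differences were smaller in MCM2, where the last exon held 16.1% and 17.4%, and in MCM5, where the fourth held 5.94% and 5.25% with overlapping intervals. These shares do not count junctions or splicing events.

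The promoters of the genes were read because E2F factors act there. RefSeq promoters (GRCh38.p14, 250 bases before the start and 50 from it) were at hand for 8 of the 10 genes, 12 in all as some genes have several starts. They were searched on both strands for the E2F words TTTCCCGC, TTTGGCGC, TTTCGCGC and TTTGCCGC, which can overlap each other on opposite strands, and for CCAAT. At least 1 E2F word was found for PCNA, MCM3, MCM6, MCM2, MCM7, CDC6 and E2F1, in 7 of the 12 promoters, and for RRM2 these letters are not in the window. MCM7 has several starts, and only its promoter furthest upstream holds such words. Over all 35116 promoters in the table, 3.31% hold such a word, a share not matched for GC content. CCAAT was found in 11 of the 12, against 34.6% of all. PCNA has 2 starts in the table, 6664 bases apart on GRCh38.p14, and its word lies in the upstream promoter, whereas 99.96% of its control reads fell on exons from the second listed onward, whose end lies 6621 bases from that of the first on hg19. A match is a string of letters and not a measured site.

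The 4 promoters below belong to genes with 1 start in the table, a pair of ring subunits that were more than 2-fold lower after BS008 and the pair of genes nearest to control, so that both kinds can be read side by side. Capitals mark the E2F words. The MCM3 promoter is chr6:52284693-52284992 on the minus strand, that of MCM6 chr2:135876394-135876693 on the minus strand, that of CDC6 chr17:40287629-40287928 on the plus strand and that of E2F1 chr20:33686336-33686635 on the minus strand.
MCM3: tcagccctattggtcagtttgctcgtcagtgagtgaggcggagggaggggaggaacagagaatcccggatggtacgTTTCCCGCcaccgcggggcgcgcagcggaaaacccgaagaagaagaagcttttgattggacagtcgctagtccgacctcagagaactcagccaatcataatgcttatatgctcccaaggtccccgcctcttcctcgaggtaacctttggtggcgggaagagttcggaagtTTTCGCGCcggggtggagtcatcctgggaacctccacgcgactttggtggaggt
MCM6: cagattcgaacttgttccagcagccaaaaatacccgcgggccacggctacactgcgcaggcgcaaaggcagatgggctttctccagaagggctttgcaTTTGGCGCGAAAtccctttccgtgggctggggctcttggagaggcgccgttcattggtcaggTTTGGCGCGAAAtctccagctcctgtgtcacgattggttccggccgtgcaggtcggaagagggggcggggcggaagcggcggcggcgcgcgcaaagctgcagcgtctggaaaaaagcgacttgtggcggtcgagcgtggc
CDC6: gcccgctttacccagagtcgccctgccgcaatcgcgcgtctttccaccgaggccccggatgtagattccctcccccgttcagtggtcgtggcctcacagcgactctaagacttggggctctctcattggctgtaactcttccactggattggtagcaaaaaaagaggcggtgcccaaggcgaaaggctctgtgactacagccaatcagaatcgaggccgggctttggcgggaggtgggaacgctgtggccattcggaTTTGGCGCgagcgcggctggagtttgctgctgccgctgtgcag
E2F1: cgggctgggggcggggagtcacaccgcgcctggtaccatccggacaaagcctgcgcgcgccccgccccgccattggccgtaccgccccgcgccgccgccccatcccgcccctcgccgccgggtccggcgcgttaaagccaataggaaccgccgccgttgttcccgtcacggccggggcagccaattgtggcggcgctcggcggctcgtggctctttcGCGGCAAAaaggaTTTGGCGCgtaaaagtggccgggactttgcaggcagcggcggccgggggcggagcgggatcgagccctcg

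In MCM3 the words begin 174 and 4 bases before the start, in CDC6 the word begins at base 8 of the transcript, and in E2F1 the words begin 33 and 20 bases before the start. MCM6 holds the longer string TTTGGCGCGAAA, in which words on both strands overlap, at 2 places that begin 152 and 90 bases before the start. These 4 genes were picked by their ratios, and any link between such words and the ratios was not tested.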

How the data were processed

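RNA of 1 control and 1 BS008 culture was made into libraries with an Illumina mRNA-seq kit. The deposited counts are reads per listed exon, left unscaled by the authors. RPKM per exon was deposited beside them, and recomputing it from the counts returned the authors' values to within 4.7e-06. The submitters' processing notes name hg19, while the aligner, the counting tool and the annotation are not given in the sources used here. A general treatment note names BS008 for both samples, so groups were taken from each sample's own treatment label. Mitochondrial exons held 11.8% of the counts in control and 13.1% in BS008, and 3 reads amounted to 5.4e-06% and 5.6e-06%.

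Counts were summed over the exons in each window and scaled to the library total, with 0.5 CPM added. The ratios of single exons and their intervals were tested on simulated counts based on the control library. The sums over the windows and the share intervals were not. Ratio intervals were exact conditional binomial and share intervals Wilson. All 10 genes are named, and of exons with at least 100 reads the one with the highest and lowest log2 ratio and the largest difference in share in a gene. The upstream exons of PCNA and MCM7, the first and last exons of MCM7, the ninth of MCM2, the first of E2F1, the stretches and the microRNA precursors were chosen after their values had been seen. The genes and lists were chosen with earlier results of these data known. Alternatives were other pseudocounts, scales, minimums, limits and ways of joining exons. A planned list of other replication genes, the cell type markers and protein sequences were not analysed here, as no annotation on hg19 and no protein table were used. Python 3.11.15 with numpy 2.4.6, pandas 2.3.3, scipy 1.17.1 and matplotlib 3.10.9 was used, and edgeR 4.0.16 (R 4.3.3) gave the TMM factors.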

Additional observations from a re-analysis of the deposited data

How the results depend on the processing

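Each of the 10 log2 ratios was recomputed under 12 alternatives, and all stayed below 0. The 7 genes lower by at least 1.5-fold were past that limit in each, and MCM7 (-0.57 to -0.46), CDC6 (-0.33 to -0.21) and E2F1 (-0.16 to -0.05) in none. With a 2-fold limit, 4 genes and 52 exons remained. The median over the genes, -0.90, was -0.85 with TMM factors and between -0.95 and -0.87 in the other alternatives. The number of exons lower by 1.5-fold was between 93 and 105 in the alternatives that kept this limit. Exons whose share moved by at least 1 point numbered 69 instead of 29 when the share was taken of an exon and its nearest neighbours, where the sum is smaller. No listed exon of these genes overlapped another on the same strand, so that alternative changed nothing. Leaving out exons that overlap the other strand, or the microRNA precursors, was added after the data had been seen. Among the gene ratios, these alternatives changed that of MCM7 alone. With 1 library for each condition no replicate could be left out, and more reads would not tell how much 2 cultures of the same condition differ.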
